A study of Mus musculus with 8 samples.

Results

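Aminoacyl-tRNA synthetases join each amino acid to its transfer RNA and so supply every ribosome with charged tRNA. The family described here holds 37 of the 29037 genes in the deposited table, 20 of them cytosolic enzymes or subunits and 17 mitochondrial enzymes. Members were chosen by gene symbol alone: a letter followed by ars, with or without a final digit, plus Eprs, Farsa and Farsb. Symbols that end in ars2 form the mitochondrial set. No measured value entered that choice, but the family was put forward with the contrast of the 2 genotypes already known. Counts and medians over members are therefore a description of these libraries and support nothing further.

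In mouse cells the nucleus encodes both sets, and the mitochondrial enzymes are imported to charge the tRNAs that the mitochondrial genome encodes. Gars and Kars serve both compartments, and mitochondria make glutaminyl-tRNA by an indirect route through Ears2 and the amidotransferase GatCAB. Several cytosolic enzymes are held in a multi-synthetase complex with the scaffold proteins Aimp1, Aimp2 and Eef1e1. Many cytosolic synthetase genes are known targets of ATF4, the transcription factor of the integrated stress response, which is switched on when eIF2 alpha is phosphorylated, for example on amino acid shortage.

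RNA-seq libraries came from intestinal crypt cells of 8-week-old mice, 4 with a conditional knockout of Tdp-43, labelled cKO, and 4 littermates labelled Ctrl and WT. Tardbp is the gene for Tdp-43, a protein that binds RNA and acts in its splicing and stability. The crypts were freed from the gut with EDTA and shaking. The floxed allele, its deleted part, the Cre line, the sex of the mice and the gut region are not stated in the labels, and no agent is named for either group. The deposited normalised counts were divided back to whole reads, which summed to between 21517596 and 29992110 reads per library. cKO replicate 2 stood apart from the other cKO libraries in the cytosolic set, so counts are given with and without it.

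Tardbp itself was higher in the libraries labelled cKO, with normalised counts of 11990.2, 10794.1, 11875.2 and 13269.3, against 6319, 6342, 5103 and 4900.2 in Ctrl libraries. Its log2 fold change was 1.09 ± 0.11 (SE, limma, adjusted p = 0.00209). A count over the whole gene checks nothing where the deleted part is not known, so cKO in the following stands for the label. Of the 16536 genes tested, 935 (5.65%) were higher in cKO and 1004 (6.07%) lower, by limma on log2(normalised count + 1) with an adjusted p under 0.05. Scaling the recovered reads to library totals instead gave 1327 higher and 740 lower.

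By its median over members, the cytosolic set sat above all 4 Ctrl libraries in 3 of the 4 libraries labelled cKO. Of the 20 members, 18 had a positive log2 fold change and 2 a negative one, against 49.3% positive over all genes tested. The 2 negative values were those of Kars and Qars, and that of Qars turned positive under scaling to library totals. The median log2 fold change of the set was 0.38, against -0.01 over all genes tested. The members charging alanine, histidine and arginine rose past the threshold, which is 3 of 20, beside the 5.65% of all genes called higher. No cytosolic member was called lower by limma, by edgeR or by DESeq2, and none had an unadjusted limma p under 0.05 in that direction, while 12 did in the other.

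**Figure D1:**
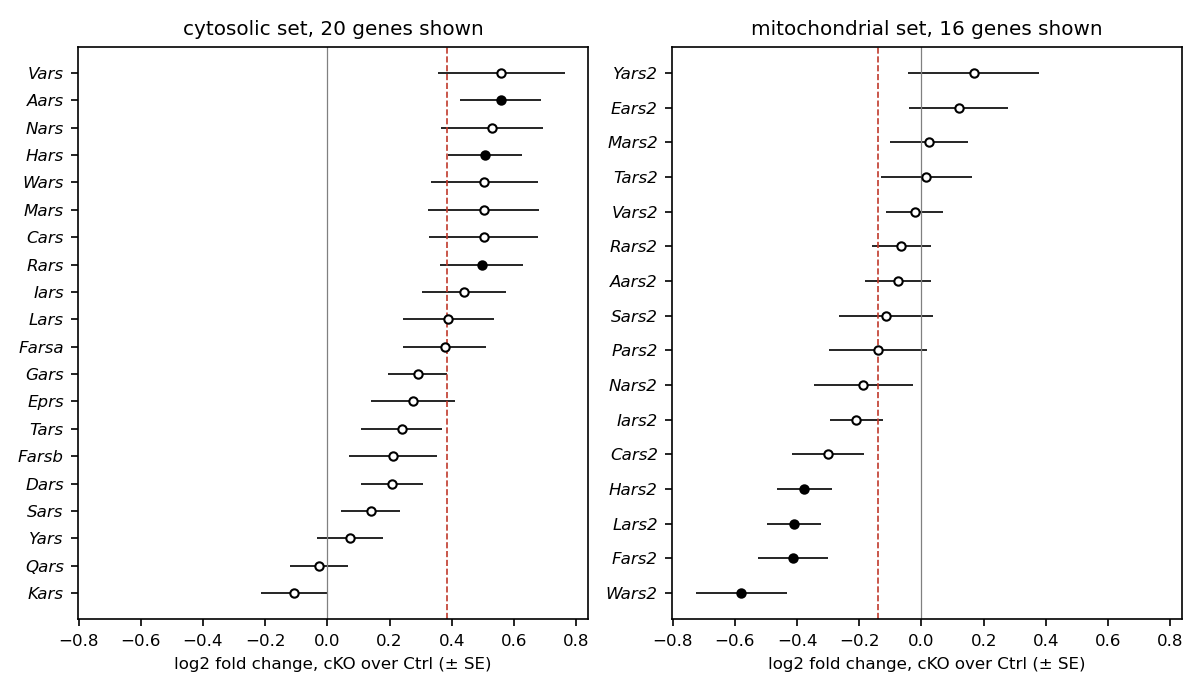
Log2 fold change (cKO over Ctrl) of 36 of the 37 synthetases on the x axis, with cytosolic and mitochondrial members in separate blocks. Points are limma estimates and bars are SE over 4 cKO and 4 Ctrl libraries, filled points have an adjusted p under 0.05, and dashed lines mark the set medians of 0.38 and -0.14.

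Aars encodes the alanyl-tRNA synthetase and had normalised counts of 5499.9, 3706, 4813 and 5586 in cKO libraries, against 3330.0, 3309, 3502 and 3029 in Ctrl libraries. All 4 cKO values lay above all 4 Ctrl values, with cKO replicate 2 nearest to them. The means were 4901 ± 868 in cKO and 3292 ± 196 in Ctrl (SD, n = 4 each), a log2 fold change of 0.56 ± 0.13 (SE, limma, adjusted p = 0.0278). Without cKO replicate 2 the log2 fold change was 0.69 (limma, adjusted p = 0.00431), and without any one of the other 7 libraries the adjusted p was over the threshold, up to 0.0752.

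Hars encodes the cytosolic histidyl-tRNA synthetase, with normalised counts of 2176, 1527, 1749.96 and 2100.01 in cKO libraries, against 1337, 1351, 1367 and 1209.7 in Ctrl libraries. The groups did not overlap, and cKO replicate 2 was again the lowest of its group. The log2 fold change was 0.51 ± 0.12 (SE, limma, adjusted p = 0.0277). The call held without cKO replicate 2 or cKO replicate 3 and was lost without any one of the other 6 libraries, with limma adjusted p-values up to 0.0759.

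Rars encodes the arginyl-tRNA synthetase of the multi-synthetase complex. Its normalised counts were 3655, 2437, 3179 and 3352 in cKO libraries, against 2357, 2399.8, 2243 and 1887 in Ctrl libraries. The lowest cKO library, replicate 2, stood just above the highest Ctrl library. The log2 fold change was 0.50 ± 0.13 (SE, limma, adjusted p = 0.0438). The call was lost without each library other than cKO replicate 2, with limma adjusted p-values up to 0.110.

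The highest and lowest fold changes of the cytosolic set belonged to members that did not pass the test. Vars, the valyl-tRNA synthetase, had the highest at 0.56 ± 0.20 (SE, limma, adjusted p = 0.110). Its normalised counts were 4903, 3039, 5418 and 4393 in cKO libraries, against 2175, 3287, 2953 and 3557 in Ctrl libraries, so that cKO replicate 2 lay inside the Ctrl range. Kars, the lysyl-tRNA synthetase of both compartments, had the lowest at -0.11 ± 0.11 (SE, limma, adjusted p = 0.562). Its normalised counts were 4313, 3645, 4592 and 3975 in cKO libraries, against 3926, 4774, 4982 and 4131 in Ctrl libraries, with wide overlap.

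**Figure D2:**
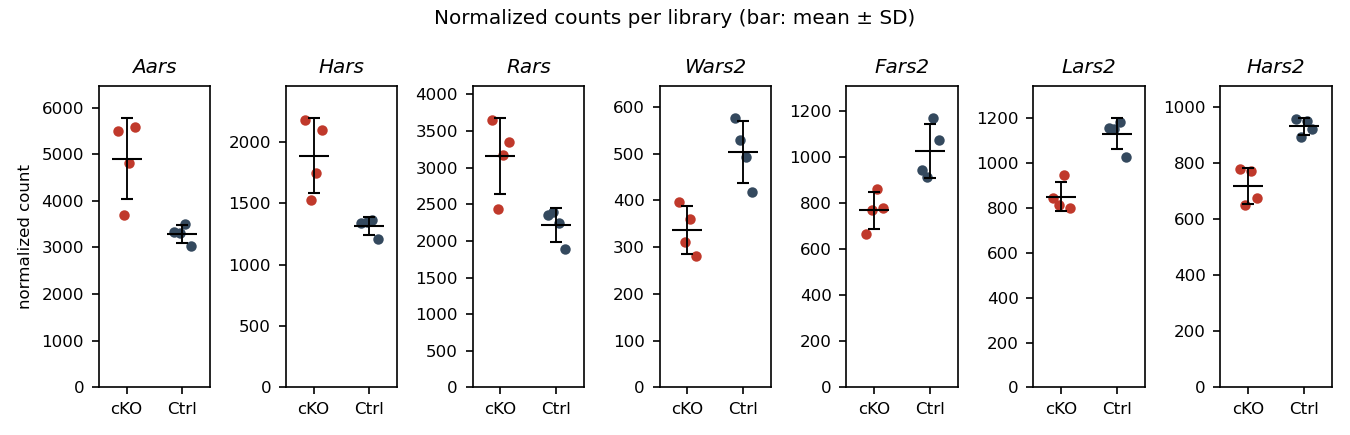
Normalised counts (y axis, from 0) of the 7 synthetases with an adjusted p under 0.05, by library, with cKO on the left of each panel and Ctrl on the right. Points are libraries and bars give the mean ± SD of 4 libraries: Aars, Hars and Rars are higher in cKO, and Wars2, Fars2, Lars2 and Hars2 are lower.

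The other members ranged between those ends. The uncalled log2 fold changes of Nars, Wars, Mars, Cars and Iars lay between 0.44 and 0.53, with limma adjusted p-values from 0.0664 to 0.101. Those of Lars, Farsa, Gars, Eprs, Tars, Farsb and Dars lay between 0.21 and 0.39, and those of Sars and Yars were 0.14 and 0.07. Sars, Yars, Qars and Kars, which charge serine, tyrosine, glutamine and lysine, thus had the smallest positive or the negative fold changes of the set. By place in the cell, the 8 members of the multi-synthetase complex had a median log2 fold change of 0.33 with 1 called, and the 12 free ones had 0.44 with 2 called. By catalytic class, the medians were 0.50 for the 9 class I enzymes and 0.27 for the 10 class II members, with Eprs, which joins both classes in 1 protein, left out. These differences between subsets were not tested.

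One cKO library stood apart from the rest of its group. cKO replicate 2 was the lowest of the 4 cKO libraries in 19 of the 20 cytosolic members. It lay above all Ctrl libraries in 4 members, within their range in 12 and below them in 4, whereas cKO replicates 1, 3 and 4 lay above all Ctrl libraries in 17, 17 and 18 members. Measured from the Ctrl mean on the log2 scale, the median over the cytosolic set was 0.53, 0.04, 0.33 and 0.51 in cKO replicates 1 to 4, against 0.05, 0.04, 0.02 and -0.12 in Ctrl replicates 1 to 4. Summed over the set, normalised counts were 82186, 61309.6, 77489 and 80098.8 in cKO libraries, against 58577, 61164.5, 62692 and 55691 in Ctrl libraries. These sums averaged 75271 ± 9504 in cKO and 59531 ± 3072 in Ctrl (SD, n = 4 each), and cKO replicate 2 was inside the Ctrl range.

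**Figure D3:**
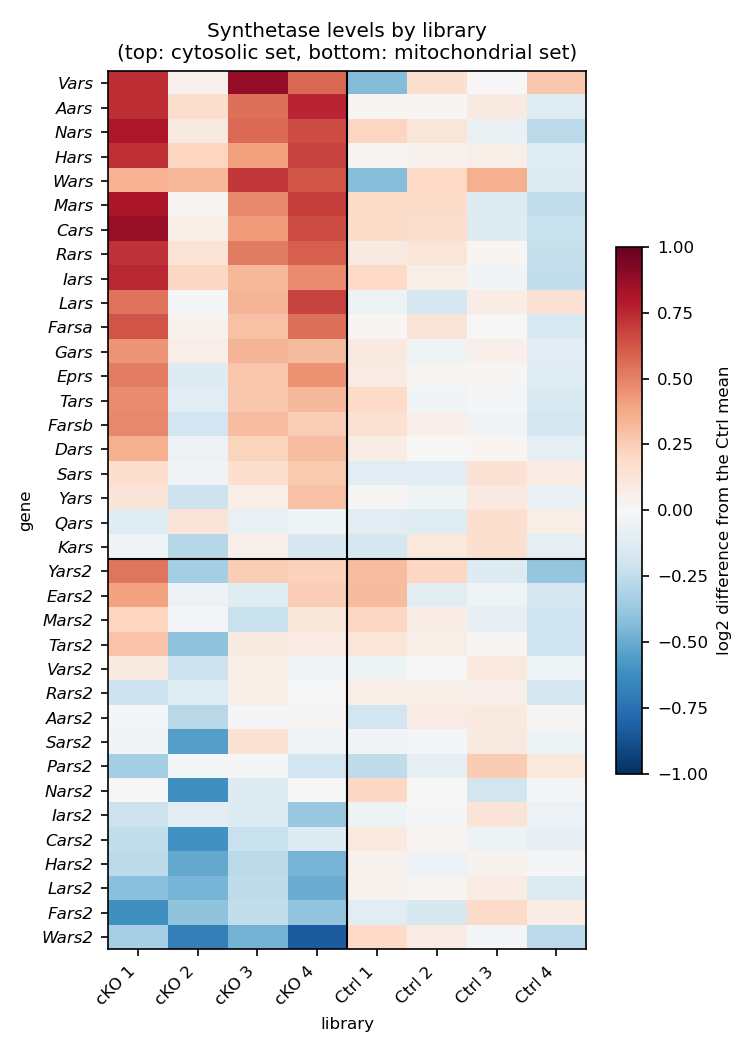
Log2 difference of 36 synthetases from their Ctrl means (colour scale) in each of the 8 libraries, with the 4 cKO libraries in the left columns and the 4 Ctrl libraries in the right ones. Cytosolic members are mostly above the Ctrl mean in cKO replicates 1, 3 and 4, while cKO replicate 2 was the lowest cKO library in 19 of 20 of them.

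Without cKO replicate 2, an alternative run on all genes, limma called 15 cytosolic members higher and none lower. This set against 8.16% of all genes called higher and 8.36% called lower in the same fit. The 15 were Aars, Cars, Dars, Eprs, Farsa, Farsb, Gars, Hars, Iars, Lars, Mars, Nars, Rars, Tars and Vars, and all 3 members called with 8 libraries were among them. Without cKO replicate 3 only Hars was called, and without cKO replicate 1, cKO replicate 4 or any single Ctrl library no cytosolic member was called by limma, though between 8 and 11 had an unadjusted p under 0.05. Groups of libraries did not overlap, cKO being higher, in 4 cytosolic members with all 8 libraries (Aars, Hars, Rars and Iars), beside 9.54% of all genes. Without cKO replicate 2 this held for 16 members, beside 15.4% of all genes. That library was singled out because it was the lowest cKO library in 19 of these 20 members. Leaving it out therefore raises the fold changes of those 19 and can only add members without overlap. All genes were not chosen in that way, so their shares are no matched background for the fit without it.

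A list of 12 cell division genes moved with the same library. Its median log2 difference from the Ctrl mean was 0.52, -0.35, 0.30 and 0.48 in cKO replicates 1 to 4, against 0.27, 0.32, -0.23 and -0.28 in Ctrl replicates 1 to 4. The summed normalised counts of 5 crypt stem and dividing cell markers were 4922 in cKO replicate 2 and 8615 to 10207 in the other cKO libraries, against 7503 to 11525 in Ctrl libraries. Most of that sum was Mki67, 4561 in cKO replicate 2, which is also 1 of the 12 cell division genes. Of the 5 markers only Olfm4 was called, higher in cKO with a log2 fold change of 1.49 ± 0.41 (SE, limma, adjusted p = 0.0484). It was a low gene, averaging 24.3 normalised counts in cKO and 7.70 in Ctrl. The other 4 markers had negative log2 fold changes, -1.13 for Lgr5, -1.05 for Smoc2, and -0.10 each for Ascl2 and Mki67. Without cKO replicate 2 those of Lgr5 and Smoc2 were -0.40 and -0.60, and those of Ascl2 and Mki67 were 0.01 and 0.12. The part of cell division in the synthetase values was not tested. In bulk RNA, fewer cells of a type and less RNA per cell cannot be told apart.

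The promoters of the cytosolic members were read for the motif bound by ATF4 with C/EBP partners and for the E-box CACGTG, since the known ATF4 targets lie in this set. RefSeq sequence on GRCm38.p6, from 250 bases before to 50 after the annotated start, was matched for 27 members, 13 cytosolic and 14 mitochondrial. Hars, Rars, Vars, Nars, Wars, Cars and Lars were not matched, so of the called cytosolic members only Aars was searched. TGATGNAA was searched on both strands, N being any base, and the 2 motifs share no overlap in the windows shown. It was present in 5 of 13 cytosolic promoters (38.46%) and in 0 of 14 mitochondrial ones, against 4.51% of 27025 genes with such a window. The windows follow in the strand of the gene, with the motif in capitals, which reads as TTNCATCA where it lies on the other strand.
Yars, chr4:129189895-129189924: acgagctcagcTGATGCAAcccgacgggac
Gars, chr6:55037960-55037989: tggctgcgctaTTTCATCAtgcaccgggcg
Aars, chr8:111033840-111033869: agcgggtcactTTTCATCAgagcgctctga
Iars, chr13:49682126-49682155: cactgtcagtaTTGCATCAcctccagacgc
Tars, chr15:11399655-11399684: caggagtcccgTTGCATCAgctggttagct

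Counted from the start, the first capital lay at position 4 in Yars, -30 in Gars, 10 in Aars, 8 in Iars and -15 in Tars. Yars, with a motif, had a log2 fold change of 0.07, and Aars had 0.56, so that a match did not go with one size of change among these 5. CACGTG was present in 4 of 13 cytosolic promoters (Farsb, Aars, Iars and Tars) and in 1 of 14 mitochondrial ones (Ears2), against 8.09% of 27025 genes. Aars, Iars and Tars held both motifs, and their E-boxes are shown with the same flanks. A match is a string of letters and shows no binding.
Aars E-box, chr8:111033685-111033712: gtcaaccctgtCACGTGacactccatgt
Iars E-box, chr13:49682050-49682077: accaatcgccaCACGTGttgtttgtagg
Tars E-box, chr15:11399623-11399650: ccgcctgtggcCACGTGgcgcacgcgca

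The 250 bases before the start of Lars2, the mitochondrial member with the smallest adjusted p, are given for contrast, since they hold neither motif (59.2% GC, RefSeq, GRCm38.p6, plus strand).
Lars2, chr9:123366677-123366926: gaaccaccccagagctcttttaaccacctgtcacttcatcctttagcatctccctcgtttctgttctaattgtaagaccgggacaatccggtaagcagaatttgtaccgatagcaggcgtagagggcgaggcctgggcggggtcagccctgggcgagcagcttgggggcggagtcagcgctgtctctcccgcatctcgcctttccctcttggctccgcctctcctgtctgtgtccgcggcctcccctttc

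The mitochondrial synthetases had mostly negative fold changes in the libraries labelled cKO. Of the 17 members, 4 had a positive log2 fold change and 13 a negative one, a split that scaling to library totals turned into 7 and 10, with Aars2, Rars2 and Vars2 changing sign. The median log2 fold change was -0.14, against -0.01 over all genes tested. Wars2, Fars2, Lars2 and Hars2 fell past the threshold, which is 4 of 17, beside the 6.07% of all genes called lower. No mitochondrial member was called higher by limma, edgeR or DESeq2, and none had an unadjusted limma p under 0.05 in that direction, while 7 did in the other. The groups did not overlap, cKO being lower, in 7 members, the 4 called ones among them, beside 10.3% of all genes.

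Wars2 encodes the mitochondrial tryptophanyl-tRNA synthetase and had the lowest fold change of the family. Its normalised counts were 396, 311, 360.4 and 281 in cKO libraries, against 575, 528, 493 and 417 in Ctrl libraries. Every cKO value lay below every Ctrl value. The means were 337 ± 51.3 in cKO and 503 ± 66.7 in Ctrl (SD, n = 4 each), a log2 fold change of -0.58 ± 0.15 (SE, limma, adjusted p = 0.0354). The call was lost without cKO replicate 4 or without Ctrl replicate 1, 2 or 3, with limma adjusted p-values up to 0.0925, and under scaling to library totals.

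Lars2, the mitochondrial leucyl-tRNA synthetase, had the smallest adjusted p of the family. Its normalised counts were 844, 815, 945 and 799 in cKO libraries, against 1156, 1151, 1185 and 1028 in Ctrl libraries. The log2 fold change was -0.41 ± 0.09 (SE, limma, adjusted p = 0.0202). The groups did not overlap, and the call was lost without cKO replicate 4 or without Ctrl replicate 1, 2 or 3, with limma adjusted p-values up to 0.0646.

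Hars2, the mitochondrial histidyl-tRNA synthetase, had normalised counts of 778, 651, 770.1 and 674 in cKO libraries, against 956, 894, 951 and 922 in Ctrl libraries. The log2 fold change was -0.38 ± 0.09 (SE, limma, adjusted p = 0.0287), again with no overlap between the groups. The call held without cKO replicate 1, 2 or 3 and was lost without any one of the other 5 libraries, with limma adjusted p-values up to 0.0805. It was lost as well with no filter on low values and under library totals.

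Fars2, the mitochondrial phenylalanyl-tRNA synthetase, had normalised counts of 666, 772, 862 and 778 in cKO libraries, against 945, 917, 1170.0 and 1075 in Ctrl libraries. The groups did not overlap. The log2 fold change was -0.41 ± 0.11 (SE, limma, adjusted p = 0.0454). The call held only without cKO replicate 3 among the 8 fits that leave out a library, with limma adjusted p-values up to 0.122, and it was lost with no filter, under library totals and under upper-quartile scaling.

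Yars2, the mitochondrial tyrosyl-tRNA synthetase, had the highest log2 fold change of this set at 0.17 ± 0.21 (SE, limma, adjusted p = 0.64996). Its normalised counts were 747, 408, 611 and 604 in cKO libraries, against 639.97, 593, 469.9 and 395 in Ctrl libraries, and the groups overlapped. Ears2, Mars2 and Tars2 had values between 0.01 and 0.12. Vars2, Rars2, Aars2, Sars2, Pars2 and Nars2 lay between -0.19 and -0.02, and Iars2 and Cars2 had -0.21 and -0.30, with limma adjusted p-values of 0.143 and 0.129. By catalytic class the median was -0.06 for the 9 class I and -0.16 for the 8 class II mitochondrial members, a difference that was not tested.

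In the mitochondrial set cKO replicate 2 was the lowest cKO library in 9 of 17 members, fewer than the 19 of 20 in the cytosolic set. The median log2 difference from the Ctrl mean was -0.21, -0.40, -0.13 and -0.03 in cKO replicates 1 to 4, against 0.05, 0.03, 0.03 and -0.06 in Ctrl replicates 1 to 4. Members below all Ctrl libraries numbered 9, 12, 8 and 7 of 17 in cKO replicates 1 to 4. Without cKO replicate 2 the limma fit called 3 members lower (Hars2, Lars2 and Wars2) and none higher, all 3 of them among the 4 called with 8 libraries, and the set median was -0.05. In that fit 7 members had groups that did not overlap, cKO being lower, beside 15.8% of all genes. The number called lower was 3 without cKO replicate 1, 4 without cKO replicate 3, 2 without Ctrl replicate 4, and 0 without cKO replicate 4 or any of the other 3 Ctrl libraries, where 5 or 6 members had an unadjusted limma p under 0.05.

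The called members lie apart from each other in the genome, with 1 exception. On GRCm38, where the deposited coordinates of all 37 members equal those of GENCODE M21, Aars (ENSMUSG00000031960) spans chromosome 8 from 111033144 to 111057664. Rars (ENSMUSG00000018848) spans chromosome 11 from 35808381 to 35834506. Lars2 (ENSMUSG00000035202) spans chromosome 9 from 123366927 to 123462666, Fars2 (ENSMUSG00000021420) chromosome 13 from 36117412 to 36726280, and Wars2 (ENSMUSG00000004233) chromosome 3 from 99141068 to 99239186.

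Hars (ENSMUSG00000001380) and Hars2 (ENSMUSG00000019143) are the exception, lying head to head on chromosome 18, from 36766528 to 36783205 on the minus strand and from 36783008 to 36792562 on the plus strand. They share 198 bases, and yet Hars rose and Hars2 fell. No source used here states whether the counting used strand, so reads in shared stretches of opposite genes cannot be told apart. The same limit touches 10 members that overlap a tested coding gene on the other strand, among them Mars with Ddit3 (68 bases), Wars with Wdr25 (544 bases), Cars2 with Naxd (984 bases), Iars2 with Rab3gap2 (2034 bases) and Farsb with Sgpp2 (2315 bases). Fars2, a called member, overlaps Nrn1 by 920 bases and Lyrm4 by 115. On its own strand, Aars shares 1326 bases with the coding gene Exosc6, for which the deposited values held no entry. What those bases add to the Aars count was not tested.

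Setting each cytosolic enzyme beside its mitochondrial counterpart removes the scale of the library, because both are read in the same sample. For 17 amino acids with a member in both sets, 16 log2 ratios of the cytosolic to the mitochondrial member were higher on average in cKO than in Ctrl. In 11 of them every cKO library lay above every Ctrl library, in none did every cKO library lie below, and in 6 the groups overlapped. The shares of single genes given above are no background for ratios, and none was computed, so this count is a description. Leaving out 1 library at a time gave between 11 and 13 such pairs. Dropping a library cannot lower this count, so that range is no check of it. The median difference over pairs was 0.58 on the log2 scale, from -0.10 for tyrosine to 1.08 for tryptophan. Eprs entered the pairs of both glutamate and proline, Farsa stood for the cytosolic phenylalanine enzyme, and no test was made over pairs.

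**Figure D4:**
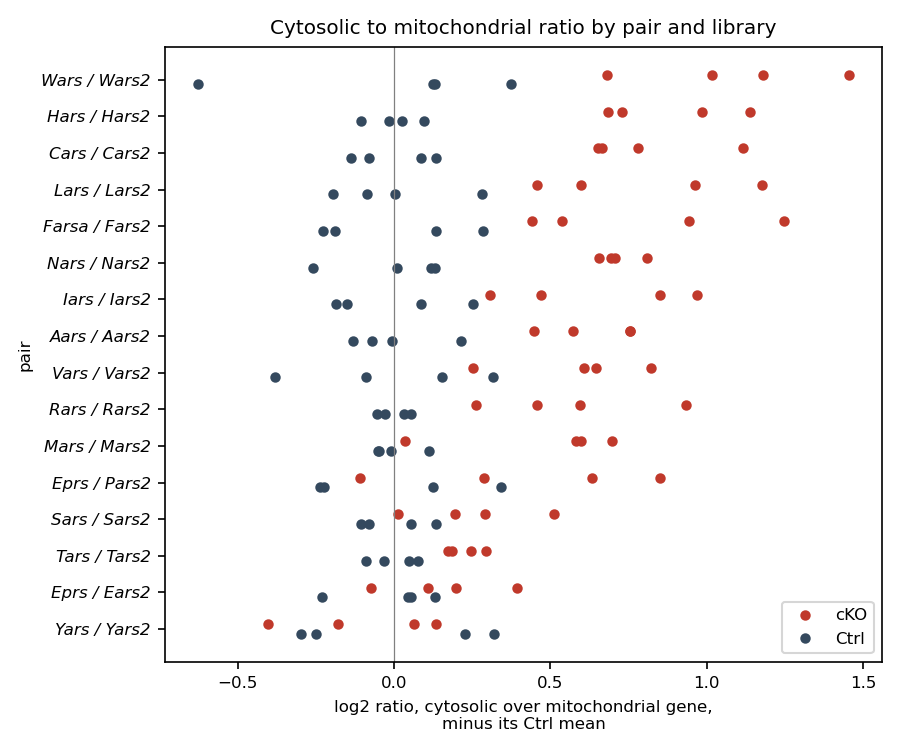
Log2 ratio of the cytosolic to the mitochondrial synthetase for 16 of the 17 amino acids, as the difference from the Ctrl mean, with a point for each cKO and each Ctrl library. The cKO points lie above all Ctrl points in 10 of these 16 pairs, with the largest mean difference, 1.08, for tryptophan and the lowest, -0.10, for tyrosine.

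The tryptophan pair, Wars over Wars2, had log2 ratios of 4.44, 4.78, 4.94 and 5.22 in cKO libraries, against 3.13, 3.88, 4.13 and 3.89 in Ctrl libraries. The histidine pair, Hars over Hars2, had 1.48, 1.23, 1.18 and 1.64 in cKO libraries, against 0.48, 0.60, 0.52 and 0.39 in Ctrl libraries. In neither of these pairs was cKO replicate 2 the lowest cKO library. The threonine pair, Tars over Tars2, differed by only 0.22, yet its cKO ratios of 1.90 to 2.02 did not overlap the Ctrl ratios of 1.64 to 1.80. The tyrosine pair, Yars over Yars2, had 1.72 to 2.26 in cKO libraries, against 1.83 to 2.45 in Ctrl libraries.

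Summed over the mitochondrial set, normalised counts averaged 13332 ± 829 in cKO and 15080.0 ± 636 in Ctrl (SD, n = 4 each). The cytosolic sum divided by the mitochondrial sum was 5.88, 5.01, 5.55 and 6.09 in cKO libraries, against 3.80, 4.04, 4.02 and 3.93 in Ctrl libraries. The ratio averaged 5.63 ± 0.47 in cKO and 3.95 ± 0.11 in Ctrl (SD, n = 4 each), and the groups did not overlap, cKO replicate 2 included.

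Per kilobase of gene length in the deposited table, the 11 highest members in Ctrl were all cytosolic. Wars led in both groups, with 2811 ± 376 normalised counts per kilobase in cKO and 2011 ± 469 in Ctrl (SD, n = 4 each). Gars had 1862 ± 199 in cKO and 1517 ± 93.2 in Ctrl, and Nars had 1914 ± 379 in cKO and 1316 ± 191 in Ctrl, so that this pair did not differ beyond their spread in cKO. Kars followed with 925 ± 92.1 in cKO and 998 ± 113 in Ctrl. Iars2 was the highest mitochondrial member, with 358 ± 29.3 in cKO and 413 ± 25.2 in Ctrl, the 12th of 37 in Ctrl. Nars2 was the lowest in both groups, with 56.2 ± 10.3 in cKO and 63.3 ± 7.11 in Ctrl, close to Wars2 and Pars2 in cKO at 56.7 ± 8.63 and 59.9 ± 6.37.

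The authors' deposited table gives its own test, and at an adjusted p under 0.05 it calls 6 cytosolic members higher and 0 lower, and 4 mitochondrial members lower and 0 higher. Over all 29037 genes, the authors' deposited table calls 5.02% higher and 5.06% lower.

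Around the synthetases stand the scaffolds of their complex and other genes of tRNA charging. Of 16 scaffold and other charging genes tested, limma called 1 higher and 2 lower, beside 5.65% and 6.07% of all genes. Their median log2 fold change was -0.05. Tarsl2, a second threonyl-tRNA synthetase that the symbol rule leaves out, had normalised counts of 120, 100.4, 137 and 88.3 in cKO libraries, against 260.4, 228, 263 and 240.2 in Ctrl libraries. It fell by 1.17 ± 0.17 on the log2 scale (SE, limma, adjusted p = 0.00603), opposite in sign to the uncalled 0.24 of Tars. Sepsecs, which makes selenocysteinyl-tRNA, fell by 0.40 ± 0.09 (SE, limma, adjusted p = 0.0273) on that scale, a call lost without cKO replicate 1 or 4 or any single Ctrl library. The scaffolds Aimp1, Aimp2 and Eef1e1 did not pass, with log2 fold changes of 0.07, 0.21 and 0.45, and Eef1e1 passed only without cKO replicate 2 (limma, adjusted p = 0.0215).

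ATF4 and its known targets make up the amino acid response and integrated stress response list. Of its 31 tested genes, limma called 20 higher and 0 lower, beside 5.65% and 6.07% of all genes, with a median log2 fold change of 0.96. By edgeR 21 were called higher and by DESeq2 22, each with 0 lower. No gene had an unadjusted limma p under 0.05 in the lower direction. Eif4ebp1, an inhibitor of cap-dependent translation, averaged 1390.2 ± 234 in cKO and 574 ± 82.3 in Ctrl (SD, n = 4 each), a log2 fold change of 1.27 ± 0.15 (SE, limma, adjusted p = 0.00287). Trib3, a pseudokinase induced in this response, averaged 422 ± 250.3 in cKO and 12.4 ± 6.10 in Ctrl (SD, n = 4 each). Gdf15, a secreted stress cytokine, averaged 670.1 ± 245 in cKO and 118 ± 13.3 in Ctrl. Slc7a3, a cationic amino acid transporter, had 27.3 to 95.2 normalised counts in cKO libraries, against 1.05 to 3.79 in Ctrl libraries. It was near the floor in Ctrl and passed the filter of 10 only through its cKO values. With a filter of 100 instead, 19 genes of the list were called higher by limma. Atf4 itself had a log2 fold change of 0.18 ± 0.13 (SE, limma, adjusted p = 0.411).

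By library, the median log2 difference of the stress response list from the Ctrl mean was 1.14, 0.68, 0.61 and 1.05 in cKO replicates 1 to 4, against 0.04, -0.06, 0.01 and -0.04 in Ctrl replicates 1 to 4. By this median cKO replicates 2 and 3 lay close together, yet gene by gene cKO replicate 2 was the lowest cKO library in 19 of the 31 genes and in 14 of the 20 called ones. Trib3, for example, had 112 normalised counts in cKO replicate 2 and 340.4 to 683 in the other cKO libraries. The number called higher ranged from 15 to 22 over the alternatives, with 21 without cKO replicate 2. The list and the cytosolic set come from the same libraries, and no relation between them was tested.

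**Figure D5:**
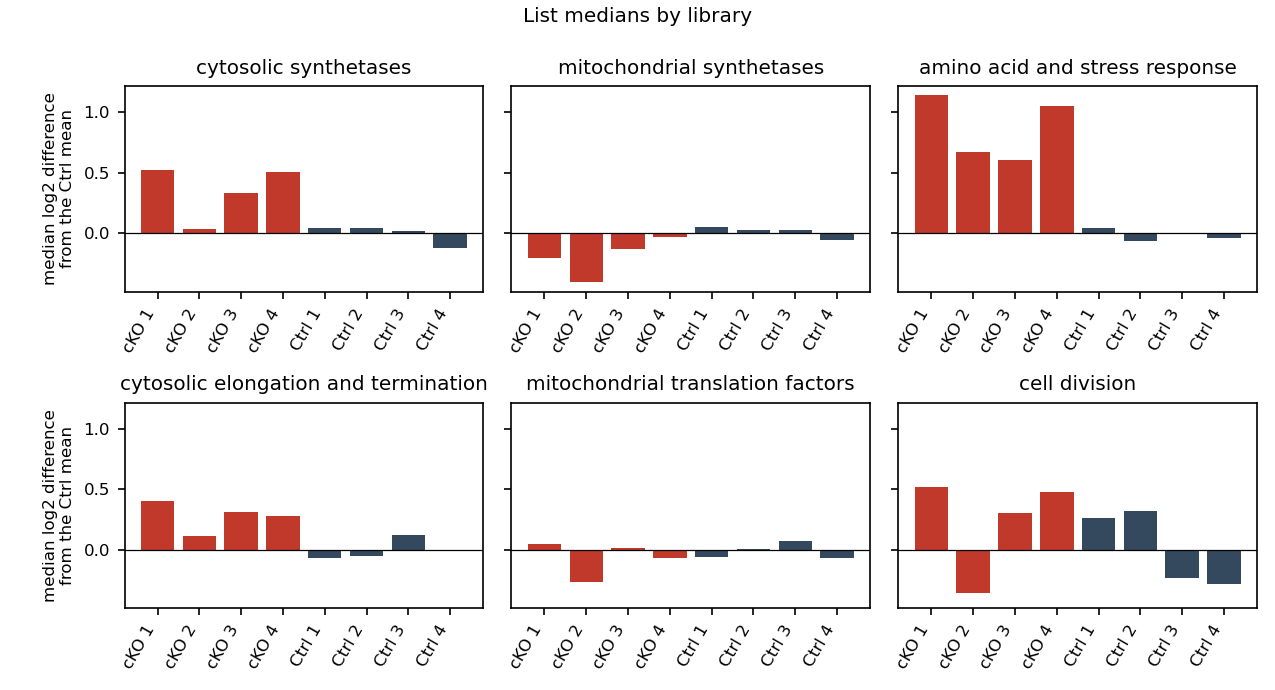
Median log2 difference from the Ctrl mean (y axis) in each library for 6 lists, with cKO libraries left of Ctrl libraries. The stress response list lies at 0.61 to 1.14 in cKO, the cytosolic synthetases at 0.04 to 0.53, and the mitochondrial synthetases at -0.40 to -0.03.

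Among 10 genes for the eIF2 alpha kinases, their partners and phosphatase subunits, limma called 2 higher and 1 lower, beside 5.65% and 6.07% of all genes. Their median log2 fold change was 0.02. Eif2s1, which encodes eIF2 alpha, rose by 0.56 ± 0.13 (SE, limma, adjusted p = 0.0250), a call lost without cKO replicate 1 or 4 or Ctrl replicate 3 or 4. Ppp1r15a, the stress-induced phosphatase subunit, rose by 0.74 ± 0.18 (SE, limma, adjusted p = 0.0336), a call lost without any one of 6 libraries, all but cKO replicates 2 and 3. Dele1, which relays mitochondrial stress to the kinase HRI, fell by 0.48 ± 0.09 (SE, limma, adjusted p = 0.0122) and was called in each of 19 alternatives. The transcripts of the 4 kinases themselves did not pass by limma. Nearest were Eif2ak4 at -0.33 ± 0.11 (SE, limma, adjusted p = 0.0803) and Eif2ak3 at 0.35 ± 0.12 (SE, limma, adjusted p = 0.0925). By edgeR 2 of the 10 genes were called higher and 1 lower, and by DESeq2 2 higher and 2 lower.

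Of 10 cytosolic elongation and termination genes, limma called 2 higher and 0 lower, beside 5.65% and 6.07% of all genes. Their median log2 fold change was 0.25. None had an unadjusted limma p under 0.05 in the lower direction, and edgeR and DESeq2 called 0 lower too. Eif5a, which helps ribosomes through difficult stretches, rose by 0.43 ± 0.12 (SE, limma, adjusted p = 0.0451). Etf1, a release factor, rose by 0.33 ± 0.08 (SE, limma, adjusted p = 0.0300). Both calls were lost without each single library other than cKO replicate 2. Without cKO replicate 2, 6 of the 10 were called higher, beside 8.16% of all genes. That library was the lowest of the cKO group in 6 of the 10 genes. Leaving it out raises the fold changes of those 6, so the share of all genes is no matched background here either. Of 10 mitochondrial translation factors tested, limma and edgeR called none, DESeq2 called 2 higher and 1 lower, and 2 had an unadjusted limma p under 0.05 in each direction, with a median log2 fold change of -0.05.

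Of 22 genes of tRNA transcription and maturation, limma called 2 higher and 2 lower, 9.09% each way, beside 5.65% and 6.07% of all genes. Their median log2 fold change was 0.05. Xpot, the exporter of tRNA from the nucleus, rose by 0.64 ± 0.15 (SE, limma, adjusted p = 0.0267), and Nsun2, a tRNA methyltransferase, by 0.45 ± 0.11 (SE, limma, adjusted p = 0.0342). Maf1, a repressor of RNA polymerase III, fell by 0.54 ± 0.11 (SE, limma, adjusted p = 0.0187), and Polr3b, a subunit of that polymerase, by 0.34 ± 0.09 (SE, limma, adjusted p = 0.0394). Xpot was lost without cKO replicate 1 or 4 or any single Ctrl library, Maf1 without cKO replicate 1 or 4 or Ctrl replicate 3 or 4, and Nsun2 and Polr3b without each single library other than cKO replicate 2. Polr3b was lost as well with no filter on low values and under library totals. Of the 12 cell division genes, Ccne1, a G1 cyclin, was the only one called, with a log2 fold change of 1.03 ± 0.25 (SE, limma, adjusted p = 0.0295), lost without cKO replicate 1, 3 or 4 or Ctrl replicate 3 or 4.

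The 7 markers of the epithelium summed to between 302585 and 360153 normalised counts in cKO libraries and between 300858 and 360796 in Ctrl libraries, with Krt18 and Krt20 called higher. The 4 goblet markers summed to between 87643 and 320911 in cKO libraries and between 307026 and 602052 in Ctrl libraries, most of it Clca1, which limma and DESeq2 called lower and edgeR did not. The sum therefore follows Clca1 and not the list, whose median log2 fold change was -0.04. Tff3, Spdef and Muc2 were not called by limma, with log2 fold changes of 0.69, 0.04 and -0.12. DESeq2 called 1 of the 4 goblet markers higher and 1 lower. The 3 Paneth markers summed to between 639 and 1726 in cKO libraries and between 107 and 265 in Ctrl libraries, most of it Mmp7, which was called higher. Lyz1 was not called (limma, adjusted p = 0.261). In cKO replicate 2, where Mmp7 was highest, Lyz1 had 6.83, against 98.4 to 141 in the other cKO libraries. The 8 neutrophil markers summed to between 5489 and 17928 in cKO libraries and between 653 and 1503 in Ctrl libraries, and Ly6g made up most of that sum. Of 7 tested, 6 were called higher by limma, 3 by edgeR and 7 by DESeq2, beside 5.65% of all genes called higher by limma. That share is no matched background for this count. S100a8, S100a9, Retnlg, Cxcr2 and Il1r2 averaged 9.43, 9.68, 1.33, 2.53 and 5.28 in Ctrl. They passed the filter of 10 only through their cKO values. S100a8 had 30.2 to 519 in cKO libraries, against 0 to 34.7 in Ctrl libraries. Ly6g was highest in cKO replicate 2, at 17824, the library where S100a8 was lowest of the cKO group. The 7 macrophage and dendritic markers summed to between 441 and 861 in cKO libraries and between 242 and 472 in Ctrl libraries, with 1 of 7 called higher by limma, 1 by edgeR and 3 by DESeq2, and the 6 T cell markers to between 243 and 1452 in cKO libraries and between 513 and 2032 in Ctrl libraries, with 0 of 6 called by limma, edgeR or DESeq2 and 0 at an unadjusted limma p under 0.05. The part of these cells in the synthetase values was not tested.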

How the data were processed

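Gene expression was measured by RNA-seq in 8 libraries, 4 cKO and 4 Ctrl, grouped by their titles. Per the submitters' processing notes, CASAVA, featureCounts 1.5.0-p3 and HISAT2 2.0.5 were used, with no roles stated. Build, annotation and strand use: not given in the sources used here. Per gene and library the authors deposited 1 normalised signal value, with their own log2 fold change, p-value and adjusted p-value. Each library's values proved to be whole multiples of a smallest step, with 100% whole within 0.0001 reads, so that read counts could be recovered.

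Genes with a mean of at least 10 were fitted with limma 3.58.1 (robust eBayes with a trend, two-sided) on log2(value + 1), which understates changes of low genes, and adjusted by Benjamini-Hochberg over 16536 genes. The threshold was 0.05. All 37 members passed the filter. The recovered reads went into edgeR 4.0.16 (quasi-likelihood, TMM) and DESeq2 1.42.0 as alternatives, beside other scalings, pseudocounts, filters, a replicate block and each library left out. The limma step was tested on simulated data. The labels name mice per group but not which mouse gave which library, so p-values measure the spread between libraries. All pairs of libraries within a group differed by more than sampling noise (smallest chi-square per degree of freedom 26.1). Members and lists were chosen with earlier results of these data known. Named genes were Tardbp, all members, with values by library for called members and for the highest and lowest fold change of each set, and up to 4 called genes of each related list by adjusted p, any that moved against it, Atf4, Aimp1, Aimp2 and Eef1e1. Ly6g, S100a8, Mki67, Olfm4, Lyz1, Krt18, Krt20, Clca1 and Mmp7 were named after their values were seen. So were Lgr5, Smoc2, Ascl2, Tff3, Spdef, Muc2, S100a9, Retnlg, Cxcr2, Il1r2, Eif2ak3 and Eif2ak4. Some items that this rule names are not reported here. In the related lists, Fgf21 fell under the filter and 1 name was not matched.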

Additional observations from a re-analysis of the deposited data

Results flagged for a closer look

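Among 82 groups of 4 values examined (each synthetase, both summed sets, their ratio and Tardbp, in each genotype), 2 held a library far from the other 3 by Dixon's criterion, where chance gives about 1 in 20. Aars2, the mitochondrial alanyl-tRNA synthetase, had 563.6 normalised counts in cKO replicate 2, against 672.7 to 687.9 in the other cKO libraries. Rars2, the mitochondrial arginyl-tRNA synthetase, had 863.7 in Ctrl replicate 4, against 1007 to 1017 in the other Ctrl libraries. Neither gene was called, and both changed sign under 1 of 19 alternatives, scaling to library totals.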

How the results depend on the processing

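With no filter 2 mitochondrial members were called, and under library totals 1 mitochondrial and 6 cytosolic members. DESeq2 called 3001 of all genes and 10 cytosolic members. The cause of these moves was not tested. Leaving out 1 library at a time gave 766 to 2732 calls over all genes, 0 to 15 over cytosolic and 0 to 4 over mitochondrial members, and medians of 0.31 to 0.50 for the cytosolic and -0.20 to -0.05 for the mitochondrial set. Both medians kept their sign in all 19 alternatives, and no called member changed sign. Of 703 fold changes of single members under an alternative, 616 kept direction and side of the threshold, 18 changed sign without being called either way, 47 lost the call, 22 gained one and 0 called ones reversed. Alternatives for the related lists and the pairs were chosen after seeing the data.

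The labels do not state whether replicate numbers pair the samples, and the correlations do not settle it. Same-numbered deviations correlated at 0.318, -0.106, 0.123 and 0.323. cKO replicates 1, 3 and 4 correlated best with the Ctrl library of their own number, and cKO replicate 2 did not. The replicate block gave 1745 calls over all genes, 2 cytosolic and 4 mitochondrial, with Rars, Ccne1, Eif5a, Ppp1r15a and Polr3b lost. The shallowest library holds 21517596 reads, and the spread among 4 libraries per genotype, more than counting error, limits the precision.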
